A study of Mus musculus with 47 samples.

Results

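Meis1, Meis2, Pbx3, Irx3, Irx5, Nr2f1, Nr2f2, Pax6 and Zfp503 are 9 transcription factors of the vertebrate body plan, and their transcripts were followed by metabolic RNA labelling in P19 cells before and after neuronal differentiation. The 9 genes were chosen by name, with their read counts in both states already known, from the 18854 gene symbols that carry a 3′ UTR interval in the processed tables. They hold 25 of the 28190 RefSeq mRNA transcripts and 31 of the 39419 intervals. P19 is a mouse embryonal carcinoma line, a single line that stands in for pluripotent cells, and no other line was measured. D0 cells were undifferentiated. D6 cells had spent 6 days in NDiff 227 medium with 500 nM retinoic acid.

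RNA was labelled with 4-thiouridine (4sU), a uridine analog that is read as a T>C conversion after alkylation. D0 cells received 20 µM of 4sU and D6 cells received 500 µM, so that dose and state cannot be told apart wherever labelled libraries of both states are set side by side. The anabolic assay followed uptake of the label from 0 to 9 h. The catabolic assay labelled cells for 15 h and then chased the label with an excess of UTP. There were 24 libraries of D0 and 23 of D6, in groups of 3, apart from a pair (2) at the third catabolic time point of D6. The 0 h libraries of the anabolic assay received no 4sU. The second time point and the third are 1 and 3 h in the sample labels and 3 and 6 h in the methods, and they are named here only by their order, as the second and the third. The study calls its replicates biological, and the labels do not say whether they came from separate cultures. Every p-value measures the spread between these libraries.

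Meis and Pbx proteins are homeodomain factors of the TALE class. They bind DNA together with Hox proteins and set positional identity along the hindbrain and spinal cord, and Meis genes are known targets of retinoic acid. Irx3 and Irx5 are Iroquois homeodomain factors that help to divide the neural tube into progenitor domains. Nr2f1 and Nr2f2 encode the orphan nuclear receptors COUP-TFI and COUP-TFII, which pattern the forebrain and are induced by retinoids. Pax6 is a paired-box factor of dorsal and intermediate neural progenitors, and Zfp503 encodes a zinc finger corepressor of the NET family.

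Each gene is represented by the 3′ UTR of the transcript with the most covered T positions, on mm10. These are chr11:18880428-18881922 on the minus strand for Meis1 (NM_001193271.1), chr2:115861264-115864513, minus, for Meis2 (NM_001136072.2) and chr2:34171457-34172973, minus, for Pbx3 (NM_001290576.1). Irx3 (NM_008393.3) lies at chr8:91798511-91798921, minus, and Irx5 (NM_018826.2) at chr8:92360897-92361456, plus. Nr2f1 (NM_010151.2) lies at chr13:78188973-78189732, minus, and Nr2f2 (NM_009697.3) at chr7:70351950-70354656, minus. Pax6 (NM_001244198.2) lies at chr2:105696356-105698410, plus, and Zfp503 (NM_145459.3) at chr14:21983962-21984887, minus. The intervals ranged in length from 411 bases for Irx3 to 3250 for Meis2, against a median of 755 over all symbols. T made up from 25.5% of the bases in Irx3 to 34.3% in Irx5, against a median of 28.9%.

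Label loss is measured on these 3′ UTRs, so the short elements in them that are known to recruit decay factors were read out. The 3′ UTRs of Meis1, Pbx3, Irx5, Nr2f1, Nr2f2 and Zfp503 could be read whole from GENCODE M21 exons of the same build, with the number of T equal to that in the tables. The sense strand was searched for TATTTAT, the core of AU-rich elements that bind decay-promoting proteins, and for TGTANATA, the site bound by Pumilio proteins. Zfp503 held TATTTAT as 2 matches that overlap each other. Of like-length 3′ UTRs (within 10%), 23.8% held it. Pbx3 held TATTTAT as a single match, against 32.6% of like-length 3′ UTRs. No match was found in Meis1, Irx5, Nr2f1 or Nr2f2, and 48.9% of 3′ UTRs near Nr2f2 in length held it. In the following sites the capitals mark the motif.
Zfp503, chr14:21984553-21984582, minus: gtgaacattggTATTTATttatgttagctc
Zfp503, chr14:21984549-21984578, minus: acattggtattTATTTATgttagctccaag
Pbx3, chr2:34172094-34172123, minus: tagcaaaagagTATTTATacatcccaccaa

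TGTANATA occurred 4 times in Nr2f2, where 44.5% of like-length 3′ UTRs held at least 1 match. It occurred 2 times in Pbx3 (26.7%) and once in Meis1 (25.9%), and in Meis1 the match shares bases with an AATAAA. None was found in Irx5, Nr2f1 or Zfp503. The matches are shown because Pumilio binding is known to shorten the life of an mRNA.
Nr2f2, chr7:70352983-70353012, minus: aatcacagaacTGTAAATAgagggcagttg
Nr2f2, chr7:70352811-70352840, minus: tctgtttttctTGTATATAcatgataactt
Nr2f2, chr7:70352704-70352733, minus: cattggagttaTGTACATAaaaaaaaaaaa
Nr2f2, chr7:70352185-70352214, minus: cagcttccctcTGTAGATAtatagatatat
Pbx3, chr2:34172116-34172145, minus: ctctggagtgcTGTATATAgtgtagcaaaa
Pbx3, chr2:34171789-34171818, minus: atccaagctgtTGTAAATActgagaagcgt
Meis1, chr11:18880682-18880711, minus: tatgtagacatTGTAAATAaattttgtgca

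Libraries were primed from poly(A) tails, so reads pile up where a poly(A) signal ends the transcript. Pbx3 and Nr2f1 held the canonical AATAAA 23 and 14 bases before the annotated end. Irx5, Nr2f2 and Zfp503 held the variant ATTAAA 16, 23 and 15 bases before it. The AATAAA of Meis1 lay 263 bases before the annotated end. AATAAA was found in 75.3% and ATTAAA in 41.7% of all 14978 3′ UTRs read.
Pbx3, chr2:34171468-34171497, minus: gtttcaaacatgAATAAActttgctttcct
Nr2f1, chr13:78188975-78189004, minus: aatttaaacaaaAATAAAagaatttagcaa
Irx5, chr8:92361423-92361452, plus: gcaaaatatttaATTAAAggagattttaac
Nr2f2, chr7:70351961-70351990, minus: attattattggcATTAAAttataatttatg
Zfp503, chr14:21983965-21983994, minus: tatatttgatgtATTAAAaggttttacttc

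Libraries held 3447888 to 11677046 reads on 3′ UTRs at D0 and 1489528 to 7930149 at D6. Without 4sU, the summed level of 12 neuronal markers was 663 to 908 CPM (read counts scaled to library size) at D0 and 7756 to 8167 CPM at D6. The 9 neural progenitor markers went from 906 to 1436 CPM to 2901 to 3348 CPM, with Msi1 at 0 in both states. The 10 pluripotency markers went from 1322 to 2447 CPM to 459 to 673 CPM, with Zfp42 and Dppa5a at 0 in both. Fgf4 was at 0 at D0 only, against the direction of the sum, and Nanog was at 0 at D6 only. The 9 glial markers summed to 111 to 188 CPM at D0 and 115 to 132 CPM at D6, with Aqp4, S100b, Aldh1l1, Olig1 and Sox10 at 0 in both and Gfap at 0 at D6. Endoderm markers summed to 8.04 to 13.7 CPM at D0 and to at most 5.70 CPM at D6, and mesoderm markers went from 53.96 to 71.7 CPM to at most 12.3 CPM. Of the 7 endoderm markers, Gata4, Sox17, Afp, Ttr and Cubn were at 0 in both states. Of the 7 mesoderm markers, Tbx6, Myod1, Myog and Tnnt2 were at 0 in both and Mesp1 at D6. These are bulk libraries, so that fewer cells of a type and less RNA per cell cannot be told apart.

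Of the 9 factors, 8 had more reads in every D6 library without 4sU than in every D0 library without 4sU, and Pax6 overlapped between states. The members were chosen with this contrast known, so its values are a description and carry no test. Non-overlap in that direction was found for 19.3% of all 16091 transcripts tested. Over all 47 libraries, 7 of the 9 stayed apart, all but Irx5 and Pax6, against 2.34% of transcripts. CPM here were computed over mRNA transcripts after TMM scaling, and they compare a gene between libraries rather than genes with each other.

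**Figure D1:**
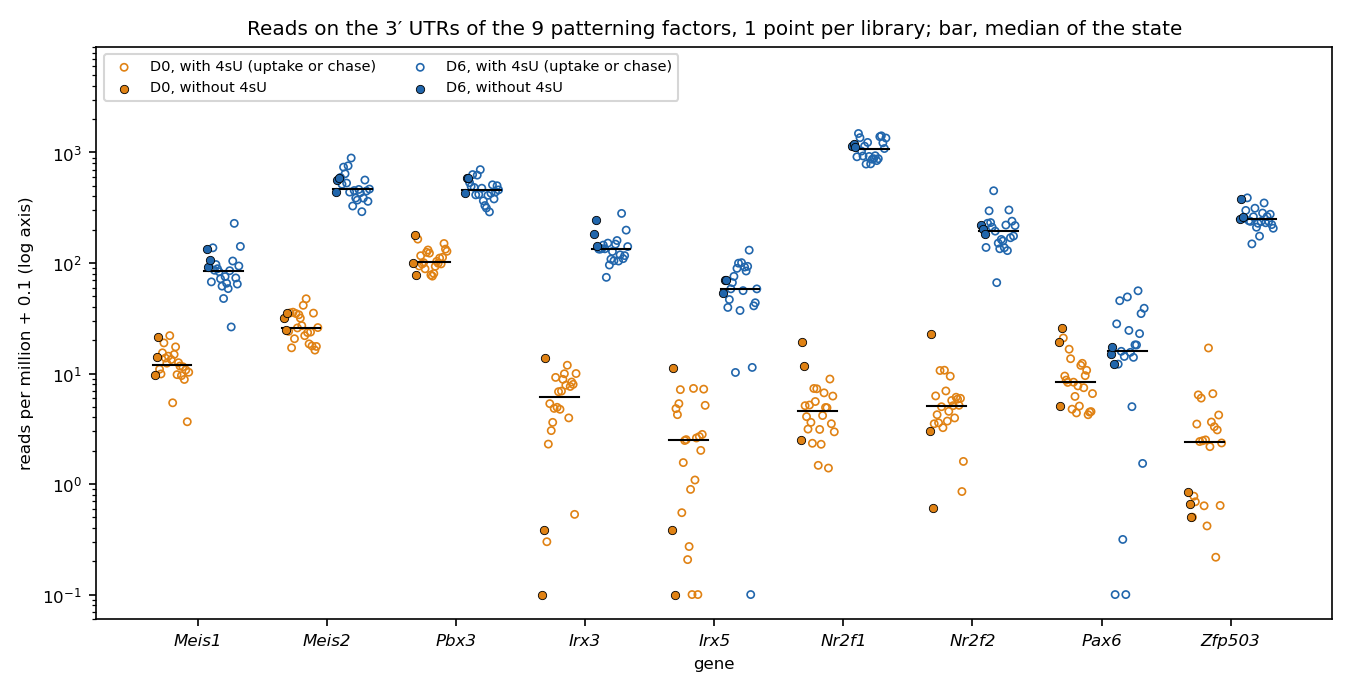
Reads on the 3′ UTR of each factor in all 47 libraries, in CPM plus 0.1 on a log axis. D0 libraries are orange (n = 24), D6 libraries blue (n = 23), filled points received no 4sU and bars are medians. All blue points lie above all orange points for 7 of the 9 genes, and the states overlap for Irx5 and Pax6.

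Among the TALE factors, Meis1 had 9.61, 13.96 and 21.4 CPM in the D0 libraries without 4sU and 133, 91.0 and 107 CPM at D6. Its means were 14.98 ± 5.95 and 110 ± 21.4 CPM (SD, n = 3), a log2 difference of 2.89 (SE 0.437). No D6 library of the 23 fell to the highest D0 library, since the lowest D6 level was 26.3 CPM and the highest D0 level was 21.9 CPM.

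Meis2, the closest paralog of Meis1, had 31.4, 24.5 and 35.2 CPM at D0 and 441, 560 and 583 CPM at D6. The means were 30.4 ± 5.41 and 528 ± 76.0 CPM (SD, n = 3), a log2 difference of 4.12 (SE 0.285). Over all libraries it ranged from 16.2 to 47.4 CPM at D0 (median 25.8, n = 24). At D6 it ranged from 291 to 891 CPM (median 463, n = 23).

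Pbx3, the partner that stabilizes Meis and Hox proteins on DNA, was already present at D0, with 99.0, 180 and 78.4 CPM, and reached 432, 582 and 589 CPM at D6. The means were 119 ± 53.5 and 534 ± 88.8 CPM (SD, n = 3), a log2 difference of 2.16 (SE 0.349). With all 6 libraries this was the smallest positive log2 difference of the 9 members, and it was 2.60 without D0 replicate 56, the high D0 library. Over all libraries Pbx3 reached at most 180 CPM at D0 and fell no lower than 290 CPM at D6.

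The Iroquois genes were near the detection limit at D0. Irx3 had 0, 2 and 137 reads in the D0 libraries, or 0, 0.282 and 13.8 CPM, and 183, 245 and 142 CPM at D6. Nearly all D0 reads came from replicate 57, so that the log2 difference of 5.35 (SE 1.31) rose to 10.47 when that library was left out. The absence of reads in D0 replicate 55 allows up to 0.280 CPM. Over all 24 D0 libraries the median was 5.99 CPM and the highest 13.8 CPM, below the lowest D6 level of 74.1 CPM.

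Irx5, which lies near Irx3 on chromosome 8, had 3, 79 and 0 reads in the D0 libraries without 4sU, or 0.280, 11.1 and 0 CPM. At D6 it had 53.4, 69.8 and 69.5 CPM, a log2 difference of 4.06 (SE 1.43). Here D0 replicate 56 held most of those D0 reads, and without it the log2 difference was 8.67. Without 4sU, Irx3 and Irx5 thus each drew most of their D0 reads from 1 library, and it was not the same library. Over all 24 D0 libraries the median of Irx5 was 2.40 CPM and the highest 11.1 CPM. With all libraries included, 21 of 23 D6 libraries lay above the highest D0 library for Irx5. The exceptions were replicate 14 of the chase, with 0 reads, and replicate 45 of the uptake, with 10.1 CPM, both at the third time point. The 0 allows up to 1.68 CPM in replicate 14 and up to 0.303 CPM in D0 replicate 57.

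Nr2f1 (COUP-TFI) had 2.43, 19.2 and 11.6 CPM at D0 and 1154, 1194 and 1119 CPM at D6. Its means were 11.1 ± 8.39 and 1155 ± 37.7 CPM (SD, n = 3), a log2 difference of 6.71 (SE 0.654). The D6 libraries differed little, and their coefficient of variation over all 23 libraries, 20.1%, was the lowest of the members.

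Nr2f2 (COUP-TFII) had 2.89, 22.6 and 0.504 CPM at D0 and 221, 203 and 182 CPM at D6. The means were 8.65 ± 12.1 and 202 ± 19.4 CPM (SD, n = 3), a log2 difference of 4.54 (SE 1.01). D0 replicate 56 again stood high for both receptors, and without it the log2 differences were 7.39 for Nr2f1 and 6.87 for Nr2f2.

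Pax6, an early neural progenitor factor, was the member whose states overlapped. It had 19.3, 4.94 and 25.8 CPM at D0 and 14.8, 17.2 and 11.97 CPM at D6, so that the D6 libraries lay inside the range of D0. The means were 16.7 ± 10.7 and 14.7 ± 2.61 CPM (SD, n = 3), a log2 difference of -0.17 (SE 0.891). Its reads also scattered within D6, from 0 CPM in 2 of 23 libraries to 55.9 CPM, with a median of 15.8 CPM, and 6 of the 23 exceeded the highest D0 library.

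Zfp503 had 8, 4 and 4 reads at D0, or 0.746, 0.564 and 0.403 CPM, and 251, 379 and 262 CPM at D6. The log2 difference was 8.98 (SE 0.450), and the D0 side rests on those few reads. It was the largest of the members with all 6 libraries, and Irx3 exceeded it without D0 replicate 57. In most D0 libraries that received 4sU Zfp503 was higher, up to 16.9 CPM in the catabolic replicate 27 at 0 h, against a lowest D6 level of 149 CPM. Over all libraries its medians were 2.29 CPM at D0 (n = 24) and 251 CPM at D6 (n = 23). Those of Nr2f1, 4.43 and 1085 CPM, were further apart as a ratio.

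Related genes of the same families and of the neural tube axis were tested in the same D6 against D0 contrast without 4sU, with edgeR's quasi-likelihood test and adjustment over all 16091 transcripts. Of 68 listed genes, 65 were in the tables and 39 were tested, of which 6 rose (15.4%) and 5 fell (12.8%). Over all transcripts 7.74% rose and 5.4% fell, and the median log2 difference was -0.03 for the listed genes and -0.04 for all transcripts. The lists were chosen with earlier results of these data known and are not independent evidence.

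Among the TALE partners, Pbx2, a broadly expressed partner, had a log2 difference of -0.08 (adjusted p = 0.902, edgeR), and Pknox1 one of 1.10 (adjusted p = 0.273, edgeR). Irx1 and Irx2, the Iroquois relatives that were tested, did not pass, with log2 differences of 2.72 (adjusted p = 0.103, edgeR) and 4.23 (adjusted p = 0.342, edgeR). The Iroquois relative Mkx had 129 reads in a single D0 library and none elsewhere.

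Among orphan nuclear receptors, Nr2c2 rose by 1.63 on the log2 scale (adjusted p = 0.0314, edgeR), and the COUP-TF relative Nr2f6 had a difference of 0.24 (adjusted p = 0.874, edgeR). Nr2c1 had one of -0.52 (adjusted p = 0.863, edgeR). Of the Pax family, Pax2, a midbrain, hindbrain and spinal interneuron factor, had 1, 5 and 0 reads at D0 and 998, 986 and 1034 at D6. Its log2 difference was 9.27 (adjusted p = 6.75e-05, edgeR). Pax3 had -0.03 (adjusted p = 0.993, edgeR), and Pax8 had no D0 read and 50, 1 and 37 reads at D6, too few to be tested.

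Of 5 Zfp503 relatives and Groucho corepressors tested, Tle5 rose, with a log2 difference of 1.81 (adjusted p = 0.0153, edgeR). Tle3 had 0.51 (adjusted p = 0.432, edgeR), Tle4 had -0.09 (adjusted p = 0.915, edgeR) and the paralog Zfp703, chosen after its values were seen, had 1.91 (adjusted p = 0.0897, edgeR).

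Of 18 axis factors tested, 5 fell. The anterior factors Otx2, Six3 and Lhx2, which mark forebrain and midbrain, had 884 ± 253, 244 ± 67.5 and 237 ± 52.2 CPM at D0 and 33.9 ± 19.0, 14.7 ± 5.94 and 12.7 ± 11.3 CPM at D6 (SD, n = 3). Their log2 differences were -4.72, -4.05 and -4.24, with adjusted p = 8.07e-05, 0.000166 and 0.00105 in edgeR. Otx1, Emx2 and Gbx2 were singled out after their values were seen, because they passed the test. The forebrain factors Otx1 and Emx2 fell (adjusted p = 0.0422 and 0.0357, edgeR), from D0 levels of 7.93 to 15.4 CPM and of 6.66 to 16.6 CPM to at most 0.205 CPM in every D6 library. Gbx2, a factor of the anterior hindbrain, rose. It had no read at D0 and 148, 81 and 212 reads at D6, at least 185-fold higher against a floor of 3 reads over the D0 group.

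Otx2, Six3, Lhx2, Pax2 and Gbx2 were called in all 10 settings tried. Otx1 and Emx2 were called in 3 of 10 and lost their call whichever of the 6 libraries was left out, and also with no filter on low counts, and Nr2c2 was called in 5 of 10. Tle5 lost its call without D6 replicate 38 or D0 replicate 55.

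**Figure D2:**
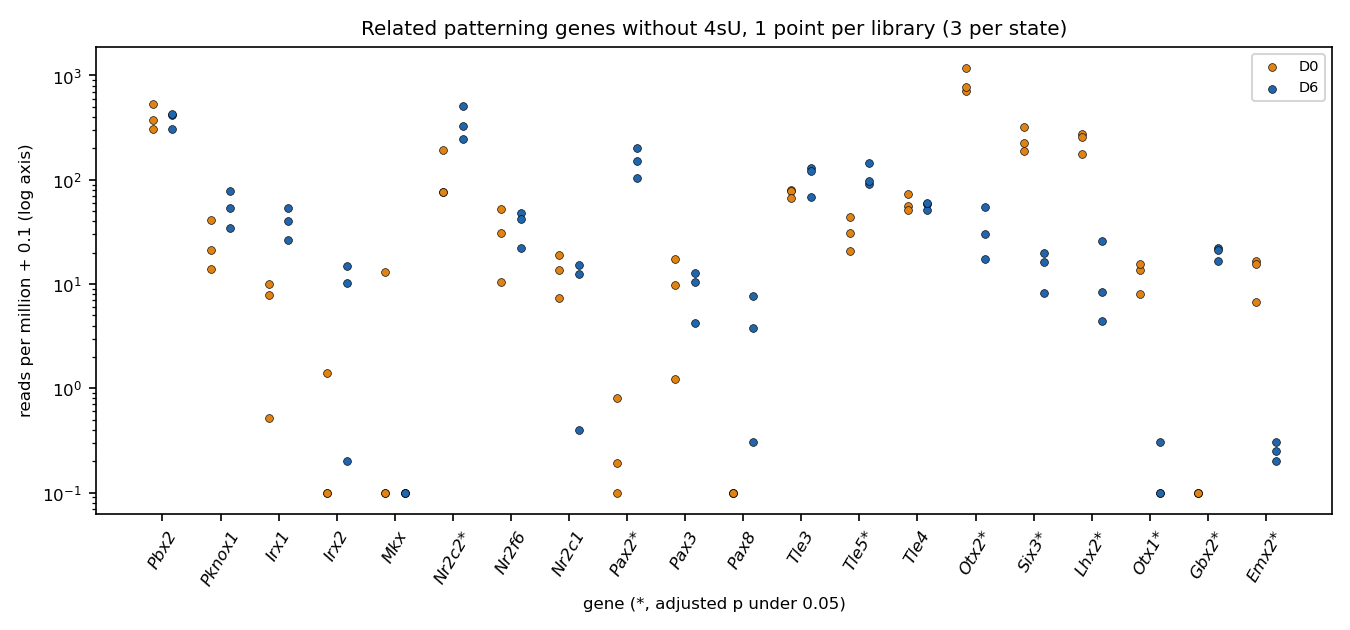
Reads of related genes in the 6 libraries without 4sU, in CPM plus 0.1 on a log axis, with 3 points per state. Stars mark adjusted p under 0.05 in edgeR. Otx2, Six3 and Lhx2 lie lower at D6, and Pax2 and Gbx2 lie higher.

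Labelling was read as the T>C rate, the percent of covered T positions that were converted. After 15 h of 4sU at D6 the rate of Meis1 was 5.21, 5.81 and 5.22%, and that of Meis2 was 4.63, 4.90 and 4.47%. For Pbx3 it was 5.37, 5.83 and 3.32%. Nr2f2 had 6.07, 7.39 and 5.04%, a mean of 6.16% ± 1.18 (SD, n = 3) that exceeded 88.4% of the 9633 transcripts with at least 1000 covered T in each library. The median transcript had 4.58%, and the other members with that depth ranged from 4.11% for Irx3 to 5.41% for Meis1. Pax6 was too shallow for a level, with as few as 812 covered T.

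**Figure D3:**
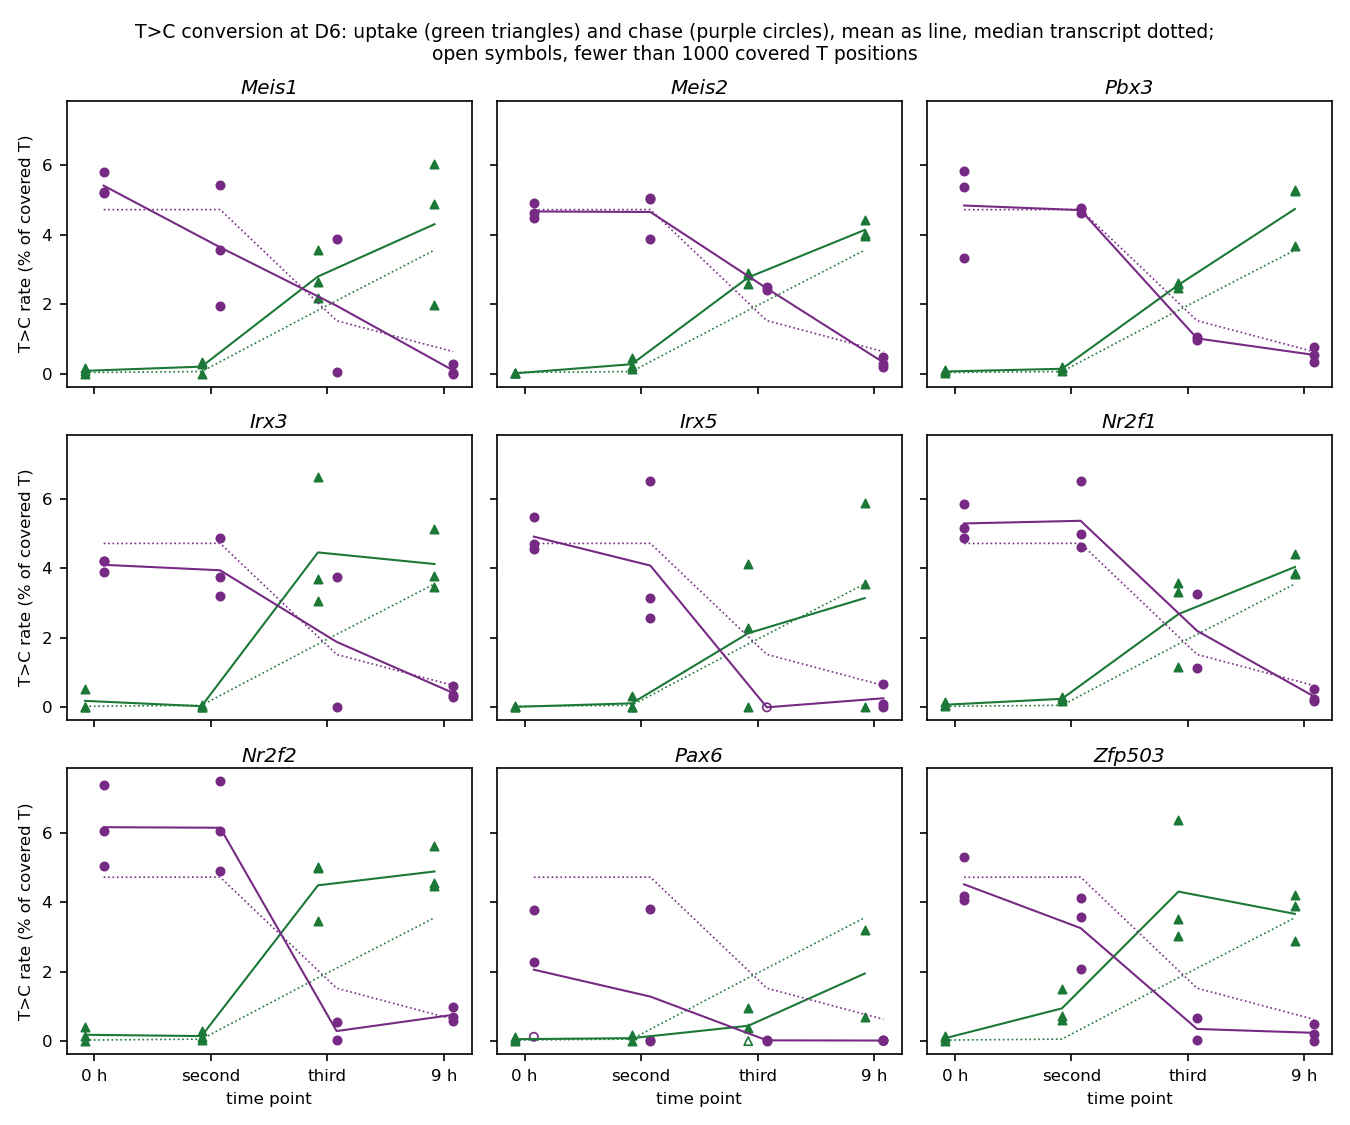
T>C conversion rate at D6 for each factor by time point, as a percent of covered T. Green triangles are the uptake assay, purple circles the chase, lines join means and dotted lines are the median transcript; open symbols have fewer than 1000 covered T. At the second uptake time point most factors lie above the dotted line, Zfp503 the furthest. At the end of the chase most factors lie at or below it.

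At 9 h after removal of 4sU, the 8 members deep enough to be read kept 1.66% to 12.3% of their 15 h rate, against 12.6% for the median of 7684 transcripts. All 8 thus lay below that median. Meis1 had rates of 0.264, 0 and 0.00517%, a mean share left of 1.66% ± 2.79 (SD, n = 3), and 7.76% of transcripts kept less. The 0 in replicate 17 allows up to 0.0314% of its 9539 covered T if these count as independent, and they came from 392 reads. Of the 3 libraries, 1 carried nearly all the remaining label.

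Meis2 had 0.478, 0.198 and 0.284%, a share left of 6.85% ± 3.07 (SD, n = 3). Nr2f1 had 0.533, 0.192 and 0.233%, a share of 6.03% ± 3.52 (SD, n = 3). In both the highest library was replicate 16, and each library lay below the median transcript's share. Zfp503 had 0.201, 0.0155 and 0.499%, a share of 5.28% ± 5.40, and Irx5 had 0.105, 0 and 0.675%, a share of 5.29% ± 7.39 (SD, n = 3). Pbx3, Irx3 and Nr2f2 lay nearest the median transcript, with 11.1% ± 4.51, 10.1% ± 3.99 and 12.3% ± 3.43 (SD, n = 3).

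**Figure D4:**
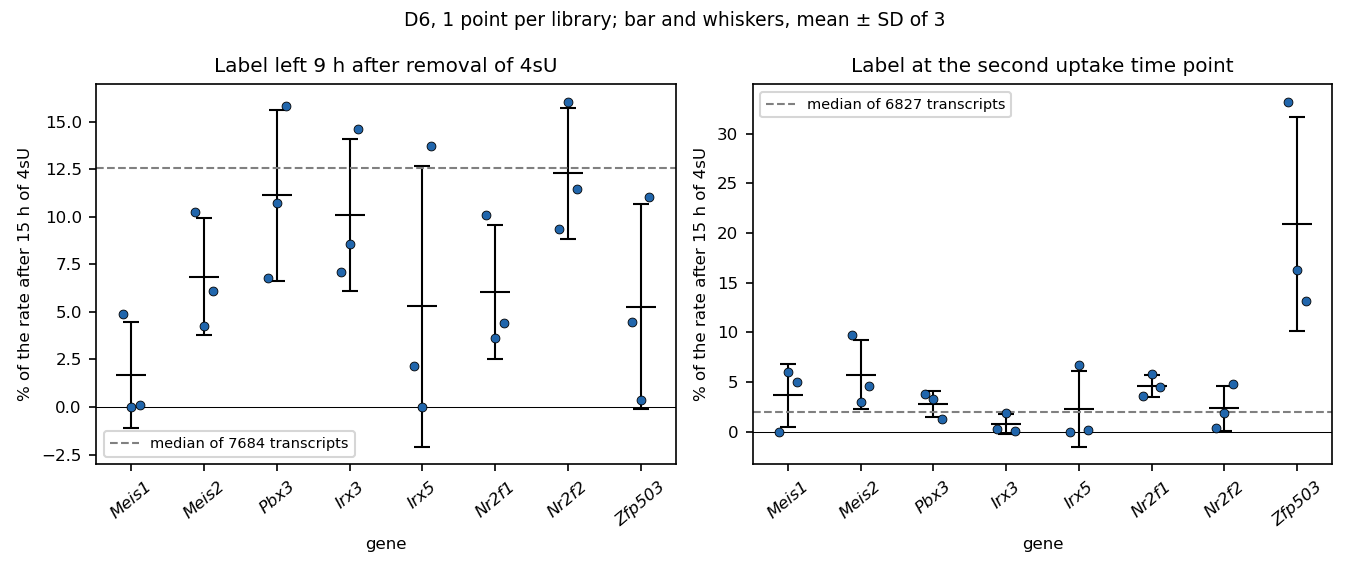
Label at D6 as a percent of the mean rate after 15 h of 4sU, for 9 h after removal and for the second uptake time point, with 1 point per library, mean ± SD (n = 3) and the median transcript dashed. Means after 9 h lie between 1.66% and 12.3%. At the second uptake time point Zfp503 reached 20.9%, and the other members lay between 0.767% and 5.75%.

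The loss of label was tested with edgeR on conversion counts, relative to the median rate of each library, over 14336 transcripts. None of the 9 members was called, where 93 transcripts (0.649%) were called and 1820 had an unadjusted p under 0.05. DESeq2 called 564 transcripts and limma 1, and neither called a member. All 9 members had a negative log2 difference, with a median of -1.19 against -0.19 over all transcripts. Nr2f1 came nearest, at -1.20 (SE 0.389, adjusted p = 0.233 in edgeR), followed by Meis2 at -0.99 (SE 0.439, adjusted p = 0.363 in edgeR). Over all alternatives the adjusted p of Nr2f1 ranged down to 0.116 and that of Meis2 to 0.0860. Direction was not the same throughout, since Pbx3 and Nr2f2 turned positive without the chase replicate 16 and Nr2f2 without the 15 h replicate 08.

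At the second catabolic time point the rates were still close to those at 0 h for most members. Pbx3 had 4.74, 4.77 and 4.61%, Nr2f1 4.98, 4.61 and 6.53% and Nr2f2 4.90, 7.49 and 6.05%, where the median rate over deep transcripts was 5.17, 4.79 and 4.21% in the same libraries. Zfp503 had 3.56, 4.12 and 2.09%, each below the median rate of its library, and Meis1 had 5.42, 1.94 and 3.55%. The Zfp503 libraries overlapped with its 4.06, 4.19 and 5.30% at 0 h.

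At the third catabolic time point only 2 libraries exist, and they disagreed for several members. Meis1 had 0.0296 and 3.88%, and Irx3 had 3.75 and 0.0168%, so that each library was high for one gene and low for the other. Meis2 was alike in both, 2.50 and 2.41%, a share left of 52.5%, against 35.04% for the median transcript. Pbx3 was alike too, 1.06 and 0.963%, a share left of 20.9%. Nr2f2 had 0.560 and 0.0181% and Zfp503 0.0315 and 0.667%, with shares left of 4.69% and 7.73%.

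Zfp503 was the member labelled earliest. At the second uptake time point of D6 its rates were 1.5005, 0.733 and 0.596%, against 0.07995, 0.158 and 0.0169% without 4sU, so that the groups did not overlap. The same was found for Meis2 and Nr2f1, in all 3 of 8 members deep enough, and for 6.14% of 6974 transcripts. The Zfp503 rate was 20.9% ± 10.8 (SD, n = 3) of that after 15 h, a share exceeded by few of the 6827 transcripts deep enough, since it stood at percentile 95.3. The median transcript had 2.02%. The next member, Meis2, had 5.75% ± 3.51 (SD, n = 3) with rates of 0.452, 0.137 and 0.215%. This value of Zfp503 was picked out after the values were seen and was not tested.

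At the third uptake time point Irx3, Zfp503 and Nr2f2 had shares of 109% ± 46.6, 95.4% ± 39.8 and 72.8% ± 14.6 (SD, n = 3), against 42.2% for the median transcript. Replicate 45 was the highest library for each of the 3 genes, with 6.64, 6.36 and 5.02%. In the same replicate Nr2f1 had 1.15%, its lowest. That library had a median rate over deep transcripts of 1.04%, against 2.05 and 2.37% in replicates 43 and 44, and its part in these shares was not tested.

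After 9 h of uptake the members had taken up 64.0% to 100.6% of their 15 h rate where depth allowed, against 76.0% for the median transcript. Nr2f1 had 76.3% ± 6.15 and Meis2 88.6% ± 5.39 (SD, n = 3), with the least spread. Irx5 ranged from 0 to 5.90%. The 0 in replicate 53 allows up to 0.0691% of its 4343 covered T if these count as independent, and they came from 213 reads. Relative to the median rate of each library, edgeR called 0 of 9 members and 0 of 14325 transcripts (0%), with 580 at an unadjusted p under 0.05. DESeq2 called 6 transcripts and limma 0. Among the members, 8 had a positive log2 difference, with a median over the members of 0.21 against -0.08 over all transcripts.

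Half-lives came from an exponential fit at the hours of the methods, kept where R squared exceeded 0.6. Decay at D6 could be fitted for 7 members. Zfp503 had the shortest half-life, 190 min (SE 41.2), and Meis1 had 215 min (SE 56.05), Irx5 223.8 min (SE 76.1) and Nr2f2 254 min (SE 79.3). Pbx3 had 274 min (SE 73.8), Nr2f1 310 min (SE 88.4) and Meis2 the longest, 331 min (SE 83.3). Neighbours in this order lay within 1 SE of each other, and Irx3 (R squared 0.588) and Pax6 were not kept. The Irx5 value rests on 10 libraries, since replicate 14 at the third time point had 0 reads, and replicate 15 there had 724 covered T.

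These values moved with the hours and also with the time points used. An exponential falls from the start of the chase. The rate pooled over all 3′ UTRs at D6 did not, with means of 4.63% at 0 h and 4.67% at the second catabolic time point. At the hours of the sample labels, decay half-lives at D6 ran from 85.0 min (SE 19.1) for Zfp503 to 204 min (SE 35.6) for Meis2. With 0 and 9 h only, on which labels and methods do not differ, decay half-lives ran from 91.3 min (SE 34.2) for Meis1 to 178 min (SE 49.1) for Nr2f2. Those of Meis2 and Nr2f1 became 140 min (SE 15.4) and 133 min (SE 29.1). Synthesis half-lives describe how fast the rate rose towards that after labelling, not the time needed to make an RNA. They could be fitted for 6 members at D6, from 205 min (SE 54.5) for Zfp503 to 376 min (SE 70.4) for Nr2f1. At the hours of the labels the same genes had 85.3 min (SE 26.8) and 233 min (SE 38.98). With 0 and 9 h only, the synthesis half-life of Zfp503 was 224.3 min (SE 40.6), that of Meis2 172 min (SE 13.7) and that of Pbx3 96.4 min (SE 83.7). The order of the members thus changed.

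At D0 most members were too sparse for labelling. Meis2 had rates of 0.399, 0.208 and 1.39% after labelling and 0.279, 0.320 and 0.0752% at 9 h after removal, and these groups overlapped. At the second catabolic time point its rate was higher, with a mean of 1.61% (1.21 to 2.08%) against 0.667% at 0 h, and no half-life of Meis2 at D0 was kept. Pbx3 was deeper, with at least 10314 covered T in each library used. Its rates after labelling were 2.31, 1.32 and 1.86%, and 9 h after removal they were 0.125, 0.0360 and 0.154%, a share left of 5.74% ± 3.36 (SD, n = 3). At D6 the share left of Pbx3 was 11.1% ± 4.51, so that the lowest D6 library, 6.80%, lay inside the D0 range of 1.97% to 8.42%. Its decay half-life was 221 min (SE 40.5) at D0 and 274 min (SE 73.8) at D6, a difference below the SE of the D6 value. Its synthesis half-life was 428 min (SE 64.8) at D0 and 303 min (SE 69.6) at D6, at different doses of 4sU. At the hours of the labels, the decay half-life of Pbx3 was 112 min (SE 22.4) at D0 and 147 min (SE 40.9) at D6. Its synthesis half-lives were 281 min (SE 33.5) and 177 min (SE 29.6). With 0 and 9 h only, its decay half-life was 131 min (SE 80.0) at D0 and 170.4 min (SE 71.5) at D6.

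Whether the label changed the level of the members was asked within D6. The 15 h libraries belong to the catabolic assay and those without 4sU to the anabolic assay. Label and assay thus cannot be told apart in that contrast. After 15 h of 4sU against none, edgeR called 0 of 9 members and 0 of 18658 transcripts (0%), with 407 transcripts at an unadjusted p under 0.05 and 37 called by DESeq2. Of the 9 members, 7 had fewer reads after 15 h, with a median log2 difference of -0.41 over the members and 0 over all transcripts. Pbx3 had 365, 331 and 314 CPM after 15 h against 432, 582 and 589 CPM without 4sU, a log2 difference of -0.62 (SE 0.264, unadjusted p = 0.0226, adjusted p = 1, edgeR). Nr2f1 had 789, 868 and 878 CPM against 1154, 1194 and 1119 CPM, a log2 difference of -0.41 (SE 0.187, unadjusted p = 0.0354, adjusted p = 1, edgeR). Every library after 15 h lay below every library without 4sU for both genes and for Meis1, Nr2f2 and Zfp503, 5 of the 9 members, where 7.29% of all transcripts did so.

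At 9 h after removal of 4sU, against 0 h, 8 transcripts (0.0429%) were called by edgeR and no member. Unadjusted p was under 0.05 for 826 transcripts, and DESeq2 called 70. Nr2f1 had 1222, 1085 and 1351 CPM at 9 h, all above its 0 h libraries, a log2 difference of 0.50 (SE 0.188, unadjusted p = 0.0107, adjusted p = 0.911, edgeR). Pbx3, Nr2f1 and Nr2f2, 3 of the 9 members, had every 9 h library above every 0 h library, as did 10% of transcripts. Of the 9 members, 8 had more reads at 9 h, with a median log2 difference of 0.44 against 0 over all transcripts. This contrast shares its 0 h libraries with the one before, so that their opposite signs are not independent. After 9 h of uptake against no 4sU, 0 members and 0 of 18658 transcripts (0%) were called by edgeR, with 655 at an unadjusted p under 0.05 and 42 called by DESeq2. The members had a median of -0.14 against -0.04.

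**Figure D5:**
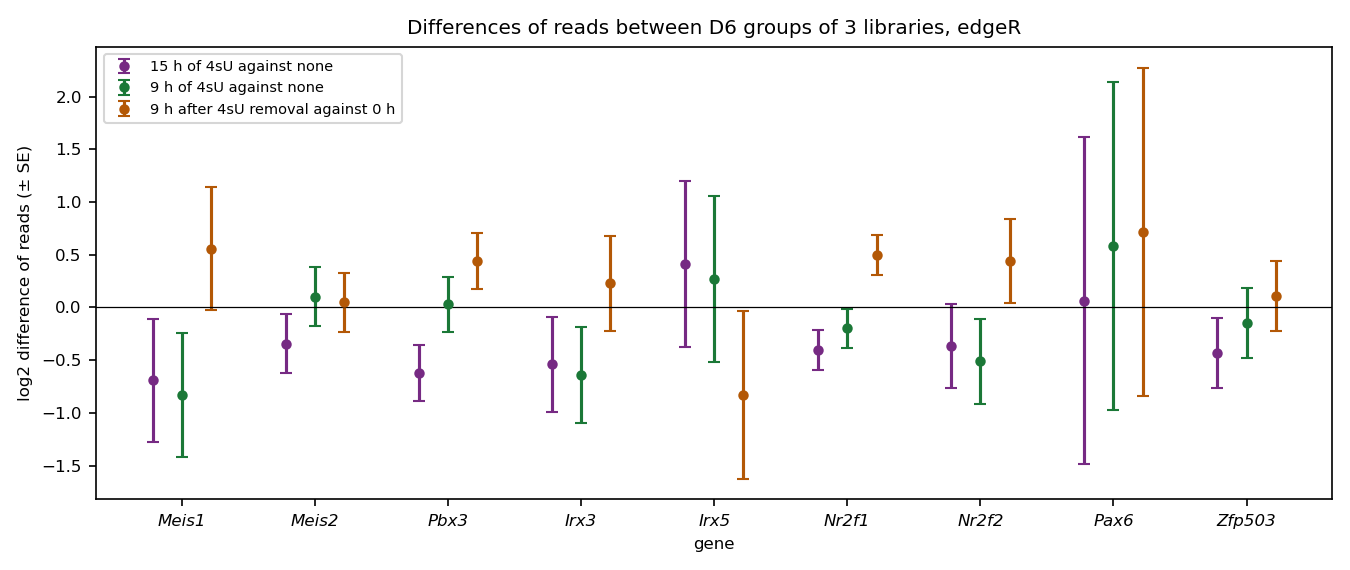
Log2 differences of reads between groups of 3 libraries at D6, with SE from edgeR, for 15 h of 4sU against none, 9 h of uptake against none and 9 h of chase against 0 h. No value passed the test. After 15 h, 7 of 9 factors lie below 0 and 8 of 9 lie above 0 in the chase.

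Across all 47 libraries, 8 members followed the mean of the other members, with Pearson's r of 0.747 for Irx5 to 0.974 for Nr2f1, and Pax6 did not, with r of 0.0710. These points share the 2 states and the same libraries, and within D6 alone r lay between -0.338 and 0.341. The genes most like the mean of the members over the 47 libraries were Sox11 (r of 0.983), Prdm8 (0.983), Hoxc4 (0.982), Hoxb2 (0.982) and Dpysl3 (0.982). Sox11 and Dpysl3 are neuronal differentiation genes, and Hoxb2 and Hoxc4 are Hox genes of the hindbrain and cervical spinal cord. Hoxb2 had 0.153 to 1.59 CPM over the D0 libraries and 224.2 to 936 CPM over the D6 libraries. Within D6 alone their r with the members was 0.151 to 0.501.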

How the data were processed

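P19 cells were labelled with 4sU, and QuantSeq 3′ libraries were made from 47 samples. The authors mapped reads to mm10, masked T>C variants and counted with SLAMdunk 0.3.3, and the deposited tables give, per 3′ UTR interval, read counts, counts of covered and converted T positions, the conversion rate as a fraction, and CPM per the file headers. Intervals carry RefSeq names, although the methods name GENCODE. The tables hold no molecular identifiers, so that reads from PCR copies cannot be told from others, and intervals and limits cover counting error only. Whether counting used strand is not given in the sources used here.

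The deposited CPM and fractions were not used. Counts were summed per RefSeq transcript, so that a 3′ UTR shared by transcripts counts for each, and scaled by TMM. Tests used edgeR 4.0.16 (quasi-likelihood, low counts filtered by filterByExpr, Benjamini-Hochberg over all transcripts, threshold 0.05). For label, conversion counts were tested with an offset of covered T times the library's median rate, restricted to transcripts averaging 1000 or more covered T, and the median rate was that of transcripts averaging 10000 or more. Half-lives were fitted by least squares with SciPy 1.17.1, to rates over the mean rate after labelling, kept for R squared over 0.6 and up to 5000 min. The methods give 15 h of labelling, and 13 h where normalization is described. DESeq2 1.42.0 and limma 3.58.1 (0.5 conversions added) were alternatives, beside other scaling, filters, reference rates, coverage minimums, samples in the fit and each library left out. Scripts were tested on simulated data.

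The members, gene lists and markers were chosen with earlier results of these data known. All 9 members are named, the 3 genes of each related list with the highest mean CPM over the 6 libraries without 4sU (some items are not reported here), and the 5 genes with the highest Pearson r to the members' mean (log2 CPM, prior count 2). Replicates are named by their numbers in the sample titles.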

Additional observations from a re-analysis of the deposited data

How the results depend on the processing

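No member was called in any of the D6 comparisons of reads or label under any alternative tried, including DESeq2, limma and each library left out, and 6 to 8 decay and 5 to 7 synthesis half-lives of D6 members were kept with a library left out. The count of related genes that fell was 5, and 3 with no filter and without each of the 6 libraries. That of related genes that rose was 6, and 3 to 7 with a library left out, the 3 without D6 replicate 38. The number of transcripts called for label left was 93 in the main test, 564 with DESeq2, 1 with limma and 10 to 24 with a library left out, and the pooled reference rate moved the median transcript from -0.19 to -0.65.

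Uncalled log2 values near 0 changed sign. Meis2 in the chase was -0.02 with RLE size factors and with DESeq2, against 0.05. For uptake in 9 h, Meis1 was -0.03 with the pooled reference rate and -0.04 with limma, against 0.01, and Nr2f1 was -0.02 with the pooled reference rate, against 0.07. The cause was not tested. With a library left out, reads after 15 h of 4sU ranged from -0.47 to 0.49 for Pax6, and reads after 9 h from -0.41 to 0.36 for Meis2, -0.21 to 0.17 for Pbx3, -0.99 to 1.17 for Pax6 and -0.28 to 0.07 for Zfp503. Reads in the chase ranged from -0.02 to 0.16 for Meis2 and -0.01 to 0.20 for Zfp503. Label left ranged from -0.62 to 0.12 for Pbx3 and -0.35 to 0.15 for Nr2f2. Label taken up ranged from -0.17 to 0.22 for Meis1, -1.32 to 0.18 for Irx5, -0.14 to 0.18 for Nr2f1, -0.22 to 0.37 for Nr2f2, -1.37 to 0.96 for Pax6 and -0.20 to 0.47 for Zfp503. D6 against D0 ranged from -0.26 to 0.19 for Pbx2, -0.18 to 0.87 for Nr2f6, -1.06 to 0.05 for Nr2c1, -0.56 to 0.72 for Pax3 and -0.21 to 0.07 for Tle4.

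No paired analysis was possible because the replicate numbers in the titles differ between groups. Depth limits the label of Pax6 at D6, of Irx5 at the third catabolic time point of D6 and of all members but Meis2 and Pbx3 at D0, where at least 1 library used held fewer than 1000 covered T positions.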
